A study of Mus musculus with 18 samples.

Results

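The genes followed here are 9 mouse genes that mark naive pluripotency and support it: Klf2, Klf4, Klf5, Esrrb, Tfcp2l1, Tbx3, Nr0b1, Zfp42 and Tcl1. They were chosen by symbol, and all 9 are among the 34896 genes listed for each library. Of these, 8 encode transcription factors or nuclear regulators. Tcl1 encodes a cytoplasmic and nuclear coactivator of the kinase AKT, so the name naive pluripotency transcription factors does not cover it. On GRCm38.p6 the genes lie at chr8:72319062-72321654 (Klf2), chr4:55527137-55532475 (Klf4), chr14:99298691-99313412 (Klf5), chr12:86361117-86521628 (Esrrb) and chr1:118627923-118685168 (Tfcp2l1). The others lie at chr5:119670534-119684724 (Tbx3), chrX:86191775-86195947 (Nr0b1), chr8:43295067-43307009 (Zfp42) and chr12:105216753-105222737 (Tcl1). Klf4, Zfp42 and Tcl1 are on the minus strand.

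Their levels were measured by SC3-seq, which sequences the 3' ends of polyadenylated transcripts, in 18 libraries that form 9 groups of 2. The series asks how cyclosporin A and FGF signalling affect primordial germ cell-like cells (PGCLCs) in culture. Embryonic stem cells (ESCs) were kept in N2B27 medium with LIF and 2 inhibitors, PD0325901 against MEK and CHIR99021 against GSK3. Epiblast-like cells (EpiLCs) were taken at day 2 of induction with activin A and FGF2, and PGCLCs at day 4 (d4) of induction with BMP4, LIF, SCF and EGF. The d4c7 groups are day-4 PGCLCs grown for 7 more days on m220-5 feeder cells, labelled CsA, FGF10, FGF2 and FR10. FR10 stands for forskolin and rolipram at 10 µM in a medium with SCF (forskolin activates adenylyl cyclase and rolipram blocks a cAMP phosphodiesterase), and it serves as the reference for the other cultures. The E9.5c5 groups, CsA and FR10, are primordial germ cells of E9.5 embryos grown for 5 days. The labels do not say whether FGF10 is a factor or an amount, nor the dose of cyclosporin A, a calcineurin inhibitor, nor whether forskolin and rolipram were in the CsA and FGF cultures. LIF is named for ESCs and for PGCLC induction but not among the listed components of the culture medium.

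ESCs, EpiLCs and d4 PGCLCs are labelled C57BL/6 and the d4c7 cells B6D2F1, and between those groups the effects of strain and of culture cannot be told apart. All of these cells carry Blimp1-mVenus and Stella-ECFP reporters. The embryo-derived cells come from B6D2F1 x C57BL/6 matings with a Stella-EGFP reporter. The d4 and d4c7 cells were sorted for mVenus and the E9.5c5 cells for EGFP, while ESCs and EpiLCs were not sorted. In such bulk libraries fewer cells that express a gene and less RNA per cell cannot be told apart. Replicates are called biological only for the cultured groups. For ESCs, EpiLCs and d4 PGCLCs the spread between replicates may be technical.

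In mouse ESCs the naive state is held by several partly redundant inputs. LIF acts through STAT3, which activates Klf4 and Tfcp2l1. Inhibition of GSK3 relieves repression by TCF7L1, of which Esrrb is a main target, and inhibition of MEK stabilises KLF2. KLF2, KLF4 and KLF5 are zinc finger factors that bind GC-rich and CACCC sequences and can replace each other in part, while ESRRB is an orphan nuclear receptor and NR0B1 (DAX1) a corepressor of nuclear receptors. TBX3 is a T-box factor, and ZFP42 (REX1) is a zinc finger protein whose loss is a standard sign of leaving the naive state. Cells lose this network when they pass to a formative, epiblast-like state, and mouse germ cells regain parts of it when they are specified.

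Promoters of 300 bases, 250 before and 50 after the start site, were found in RefSeq for 7 of the 9 genes on GRCm38.p6. Klf5 and Tbx3 had no entry. Those of 4 genes are shown because they contain matches to motifs of the Klf family or of POU factors and because these genes followed different courses below. Capitals mark matches to the GC box GGGCGG, the CACCC box GGGTGTGG and the octamer ATGCAAAT on either strand. The windows are chr8:72318812-72319111 on the plus strand for Klf2, chr4:55532426-55532725 on the minus strand for Klf4, chr8:43306960-43307259 on the minus strand for Zfp42 and chr12:105222688-105222987 on the minus strand for Tcl1, each written 5′ to 3′ along its gene.
Klf2: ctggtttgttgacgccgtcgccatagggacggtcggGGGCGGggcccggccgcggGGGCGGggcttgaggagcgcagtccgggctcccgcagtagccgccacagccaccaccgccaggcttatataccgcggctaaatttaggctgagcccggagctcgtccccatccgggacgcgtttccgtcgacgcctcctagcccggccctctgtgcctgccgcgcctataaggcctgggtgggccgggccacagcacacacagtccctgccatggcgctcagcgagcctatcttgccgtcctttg
Klf4: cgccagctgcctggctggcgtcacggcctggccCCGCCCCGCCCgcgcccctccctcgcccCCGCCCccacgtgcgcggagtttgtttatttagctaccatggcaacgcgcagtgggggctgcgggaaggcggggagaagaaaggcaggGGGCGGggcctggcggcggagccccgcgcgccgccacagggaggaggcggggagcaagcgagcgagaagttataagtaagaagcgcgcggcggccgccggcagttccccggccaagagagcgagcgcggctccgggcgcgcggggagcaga
Zfp42: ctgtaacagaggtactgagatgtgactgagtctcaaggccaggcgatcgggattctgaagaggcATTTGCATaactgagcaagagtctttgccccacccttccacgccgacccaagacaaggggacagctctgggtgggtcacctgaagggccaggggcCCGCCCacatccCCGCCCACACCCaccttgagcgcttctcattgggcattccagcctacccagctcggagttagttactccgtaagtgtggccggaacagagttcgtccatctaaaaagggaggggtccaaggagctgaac
Tcl1: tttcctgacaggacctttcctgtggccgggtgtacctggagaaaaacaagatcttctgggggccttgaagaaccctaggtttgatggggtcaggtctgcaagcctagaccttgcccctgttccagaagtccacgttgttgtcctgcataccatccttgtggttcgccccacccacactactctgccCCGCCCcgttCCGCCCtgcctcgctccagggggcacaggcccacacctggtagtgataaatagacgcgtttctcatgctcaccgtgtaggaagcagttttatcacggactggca
GC boxes stand at -214 and -195 from the start site in Klf2, at -217, -212, -189 and -101 in Klf4, at -91 and -79 in Zfp42, and at -64 and -54 in Tcl1. Of 32851 promoters of the same length, 35.7% hold a GC box. Zfp42 alone among the 7 holds the CACCC box, at -75 and overlapping a GC box, and the octamer, at -186, which 3.56% and 1.74% of promoters hold. The estrogen-related receptor half-site TCAAGGTCA, the STAT site TTCCNGGAA and the T-box half-site AGGTGTGA matched none of the 7 genes. Klf4 has 40 CpG dinucleotides in its window and Klf2 has 32, more than 96.1% and 90.5% of promoters. Zfp42 and Tcl1 have 11 each, against a median of 7. Klf2 and Klf4, both rich in CpG, had different courses after the EpiLC stage, and a link between CpG content and course was not tested.

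Inferred depth ran from 2129374 to 7547955 reads per library, at which 3 reads are 0.397 to 1.41 RPM (reads scaled to a common library total). These limits cover counting error only, because reads amplified by PCR and not tagged with molecular identifiers do not each stand for a molecule. Genes were compared with limma on log2(RPM + 1) in 1 fit of all 18 libraries over 9561 genes, and called at a Benjamini-Hochberg adjusted p under 0.05. All 9 members were tested, Tbx3 only through its ESC level. Log2 differences below are on this scale, with their SE, and understate the change of genes with low values. Replicates differed by a median of 0.601 log2 units in E9.5c5 CsA, 0.426 in E9.5c5 FR10 and 0.468 in d4c7 FGF2, against 0.193 in ESCs. Replicate 2 of each of those 3 noisier groups was left out together in 1 alternative fit, named below as without 3 libraries. The spread between 2 libraries does not show which of them is the noisier. Between groups that keep both libraries, leaving these out changes the shared estimate of spread and not the log2 difference. The EpiLC and d4 labels matched their markers. The ESC marker list holds several members, so it gives no separate check of the ESC label. The summed level of 6 EpiLC markers was 2236 to 2314 RPM in EpiLCs, against 134 to 139 RPM in ESCs. The summed level of 7 early germ cell markers was 1550 to 1709 RPM in d4 PGCLCs, against 38.1 to 51.1 RPM in EpiLCs.

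**Figure D1:**
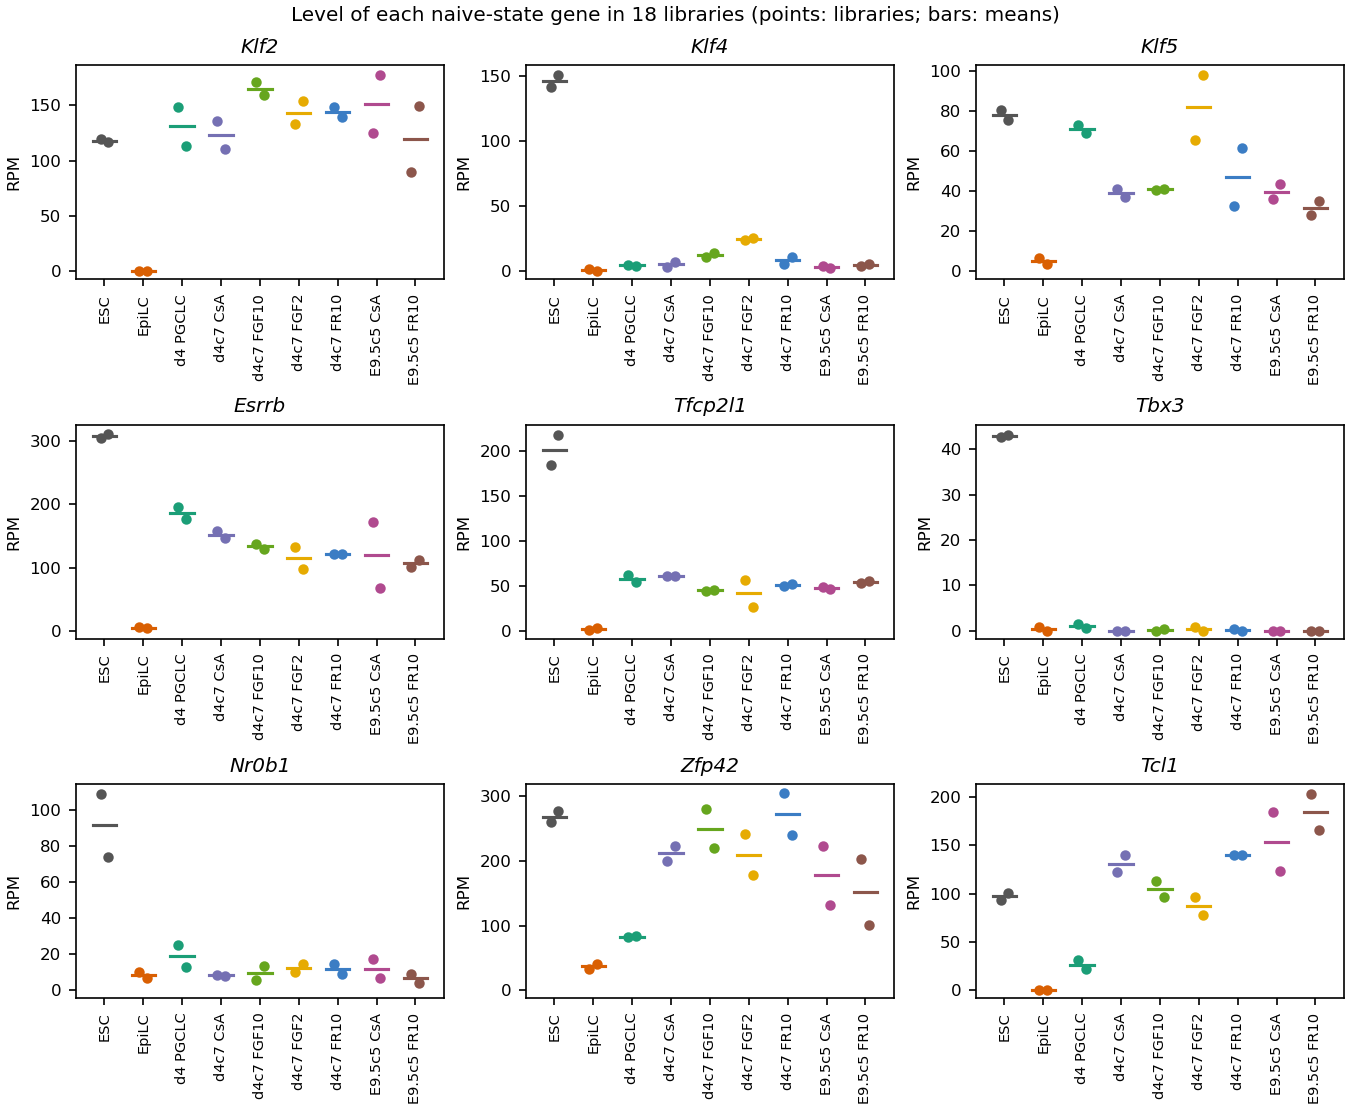
RPM of each gene (y axis, a separate linear scale per gene) in every library, with the 9 groups on the x axis, a point per library and a bar at the mean of 2. All 9 genes are low in EpiLCs, and Klf2 is back at its ESC level in d4 PGCLCs. Klf4, Tbx3 and Nr0b1 stay far below their ESC level in every later group. Zfp42 and Tcl1 are higher in the cultured cells than in d4 PGCLCs.

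All 9 genes fell in EpiLCs relative to ESCs, where 16% of the tested genes were called and 8.86% were called lower. Klf2 had 0.571 and 0.387 RPM in EpiLCs, against 119 and 117 RPM in ESCs, a log2 difference of -6.34 ± 0.25 (limma adjusted p = 5.58e-11). Tcl1 had 0.762 and 0 RPM in EpiLCs, against 93.5 and 101 RPM in ESCs. These EpiLC values rest on 4 reads over both libraries for each gene, close to the limit that 3 reads set. Tbx3 also had 4 reads in EpiLCs, 0.762 and 0 RPM, against 42.7 and 43.3 RPM in ESCs. Klf4 had 1.52 and 0 RPM in EpiLCs, against 142 and 151 RPM in ESCs.

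Esrrb and Tfcp2l1 were low but measurable after the transition. Esrrb had 5.52 and 4.26 RPM in EpiLCs, against 305 and 310 RPM in ESCs (log2 difference -5.72 ± 0.30). Tfcp2l1, which encodes a grainyhead-family factor downstream of LIF and STAT3, had 1.33 and 3.10 RPM in EpiLCs, against 184 and 218 RPM in ESCs (log2 difference -6.03 ± 0.32). The remaining 3 genes had smaller differences, and the EpiLC and ESC libraries did not overlap for any of them. Klf5 had 6.86 and 3.48 RPM in EpiLCs, against 80.7 and 75.5 RPM in ESCs (log2 difference -3.74 ± 0.33). Nr0b1 had 10.3 and 6.58 RPM in EpiLCs, against 109 and 74.2 RPM in ESCs (log2 difference -3.30 ± 0.53). Zfp42 kept the largest share, with 33.2 and 40.6 RPM in EpiLCs, against 261 and 277 RPM in ESCs (log2 difference -2.84 ± 0.29).

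The genes around them moved in both directions in EpiLCs. Of 14 other naive-state genes tested, none rose and 9 fell, and their median log2 difference was -2.96, against 0.01 over all tested genes. They include Tdh, a threonine dehydrogenase, with 5.71 and 1.55 RPM in EpiLCs, against 772 and 702 RPM in ESCs, and Nr5a2, an orphan nuclear receptor, with 0 and 0.387 RPM in EpiLCs, against 59.9 and 51.8 RPM in ESCs. Of 12 LIF and STAT3 pathway genes 5 fell, among them Stat3 itself with 10.1 and 2.71 RPM in EpiLCs, against 66.8 and 63.1 RPM in ESCs, and the receptor chain Il6st (log2 difference -2.66 ± 0.30). Of 8 genes of the Wnt, GSK3 and TCF pathway 3 fell and 1 rose. The Wnt targets Sp5 and Axin2 fell to 0 and 0 RPM, and to 0 and 0.387 RPM, in EpiLCs, against 36.7 and 57.0 RPM, and 9.41 and 16.3 RPM, in ESCs. Of 11 genes that mark the exit from the naive state 9 rose. The DNA methyltransferase gene Dnmt3b had 1414 and 1352 RPM in EpiLCs, against 111 and 105 RPM in ESCs.

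The question of which genes return was put to d4 PGCLCs, first against EpiLCs. Of the 9 genes 7 rose, where 39.6% of tested genes were called and 27.5% were called higher. Klf2, Klf5, Esrrb, Tfcp2l1, Klf4, Zfp42 and Tcl1 passed the test. Tbx3 and Nr0b1 did not. The median log2 difference of the 9 genes was 3.60, against 0.34 over all tested genes. After scaling by median ratios, which brings the median of all genes to 0.003, the same 7 genes were called.

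**Figure D2:**
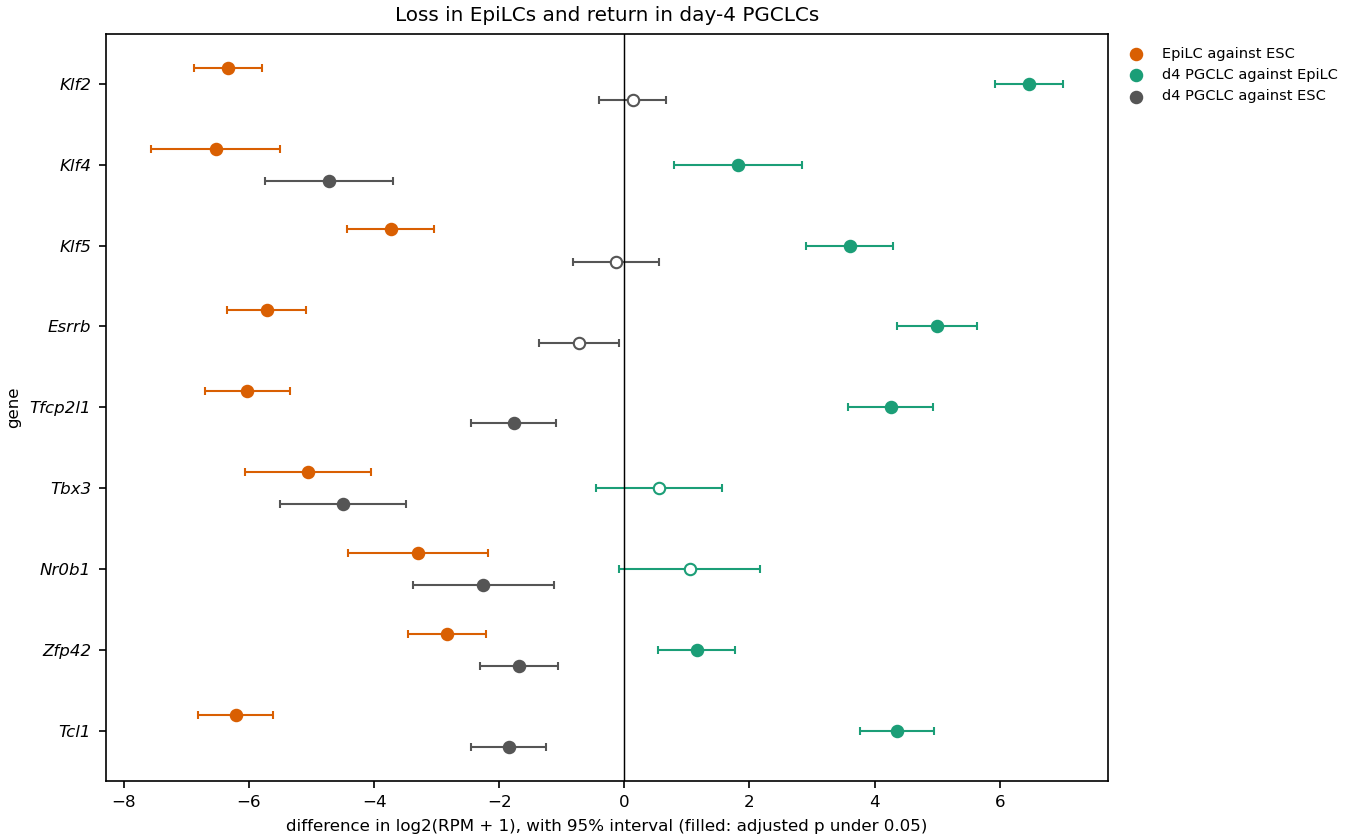
Log2 differences in log2(RPM + 1) (x axis) for each gene (y axis) in EpiLCs against ESCs, d4 PGCLCs against EpiLCs and d4 PGCLCs against ESCs, with 95% intervals from the limma fit; filled points have an adjusted p under 0.05. All 9 EpiLC values lie below 0, and Klf2 and Klf5 return to near 0 in d4 PGCLCs against ESCs, while Klf4 and Tbx3 stay more than 4 units below it.

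The Klf genes returned unequally. Klf2 had 149 and 113 RPM in d4 PGCLCs, against 0.571 and 0.387 RPM in EpiLCs, a log2 difference of 6.47 ± 0.25 (limma adjusted p = 1.33e-11). Its d4 mean was 111% of the ESC mean, and the ESC libraries lie within the range of the d4 libraries. Klf5 had 73.3 and 68.9 RPM in d4 PGCLCs, against 6.86 and 3.48 RPM in EpiLCs (log2 difference 3.60 ± 0.33), and its d4 mean was 91.05% of the ESC mean. For d4 PGCLCs against ESCs, where 34.5% of tested genes were called and 10.2% were called lower, the interval of the log2 difference was -0.40 to 0.67 for Klf2 and -0.83 to 0.56 for Klf5. Under median-ratio scaling these differences were -0.23 and -0.49, neither called, so the sign for Klf2 depends on the scaling. Klf4 stood apart from them.

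Klf4 had 5.17 and 4.05 RPM in d4 PGCLCs, against 1.52 and 0 RPM in EpiLCs and 142 and 151 RPM in ESCs. Its rise over EpiLCs (log2 difference 1.81 ± 0.49, limma adjusted p = 0.00733) rests on 32 reads in d4 PGCLCs and 8 in EpiLCs. The call was lost with a pseudocount of 10 RPM (adjusted p = 0.0946), without EpiLC replicate 2 (0.129) and without d4 replicate 1 (0.0604). The d4 mean was 3.15% of the ESC mean, a log2 difference of -4.72 ± 0.49 from ESCs (adjusted p = 2.10e-06). Of the 3 Klf members it alone was called lower in d4 PGCLCs than in ESCs.

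Esrrb and Tfcp2l1 returned in part. Esrrb had 196 and 177 RPM in d4 PGCLCs, against 5.52 and 4.26 RPM in EpiLCs and 305 and 310 RPM in ESCs. It rose by 5.00 ± 0.30 over EpiLCs and reached 60.65% of the ESC mean, and all d4 libraries lie below all ESC libraries. Against ESCs the log2 difference was -0.72 ± 0.30 (adjusted p = 0.0748, interval -1.36 to -0.08). This was called under median-ratio scaling (-1.08, adjusted p = 0.0033) and with only the compared groups in the fit (0.00119). It was also called with voom on inferred reads (0.0275) and with a replicate block (0.0491). Leaving out the 3 libraries cannot change this difference, but Esrrb was called with the spread of that fit. Tfcp2l1 had 62.5 and 53.9 RPM in d4 PGCLCs, against 1.33 and 3.10 RPM in EpiLCs and 184 and 218 RPM in ESCs. It rose by 4.25 ± 0.32 over EpiLCs and stayed at 28.9% of the ESC mean (log2 difference from ESCs -1.77 ± 0.32, adjusted p = 0.000441).

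Tcl1 and Zfp42 also came back only to about the level of Tfcp2l1 relative to ESCs. Tcl1 had 31.0 and 22.2 RPM in d4 PGCLCs, against 0.762 and 0 RPM in EpiLCs, a log2 difference of 4.36 ± 0.28 (adjusted p = 7.21e-09), and reached 27.3% of its ESC mean. Zfp42 had 81.7 and 84.0 RPM in d4 PGCLCs, against 33.2 and 40.6 RPM in EpiLCs, a log2 difference of 1.15 ± 0.29 (adjusted p = 0.00522), and reached 30.8% of its ESC mean. The Zfp42 call was lost without EpiLC replicate 1 (log2 difference 1.01, adjusted p = 0.0557). Both were called lower in d4 PGCLCs than in ESCs, by log2 differences of -1.85 ± 0.28 for Tcl1 and -1.69 ± 0.29 for Zfp42.

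Tbx3 and Nr0b1 were not called between d4 PGCLCs and EpiLCs. Tbx3 had 1.41 and 0.579 RPM in d4 PGCLCs, which is 3 reads in each library, against 0.762 and 0 RPM in EpiLCs, so a difference was not detectable at this depth (adjusted p = 0.377). The antisense gene Tbx3os1, which overlaps it, was at 0 RPM in every library. Nr0b1 had 25.4 and 12.7 RPM in d4 PGCLCs, against 10.3 and 6.58 RPM in EpiLCs, and the groups do not overlap. Its log2 difference was 1.04 ± 0.53 (adjusted p = 0.132, interval -0.08 to 2.17). Leaving out the 3 libraries, which belong to other groups, cannot change this difference, but Nr0b1 was called with the spread of that fit. In d4 PGCLCs Nr0b1 stood at 20.8% of its ESC mean (log2 difference -2.26 ± 0.53, adjusted p = 0.00348), a call lost without d4 replicate 2 (-1.79, adjusted p = 0.0572). Of the 9 genes 6 were thus called lower in d4 PGCLCs than in ESCs.

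Many genes of the upstream pathways rose in d4 PGCLCs relative to EpiLCs, where 27.5% of all tested genes were called higher. Of 12 LIF and STAT3 pathway genes 9 rose, 0 fell, and their median log2 difference was 2.35. Stat3 had 59.6 and 65.7 RPM in d4 PGCLCs, against 10.1 and 2.71 RPM in EpiLCs. The feedback inhibitor Socs2 had 544 and 434 RPM in d4 PGCLCs, against 106 and 91.3 RPM in EpiLCs. Of 8 genes of the Wnt, GSK3 and TCF pathway 5 rose and 1 fell. The one that fell was Tcf7l1, the repressor of Esrrb named above, with 17.4 and 14.7 RPM in d4 PGCLCs, against 103 and 108 RPM in EpiLCs. Axin2, a Wnt target, had 10.3 and 21.0 RPM in d4 PGCLCs, against 0 and 0.387 RPM in EpiLCs.

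Known partners of single members were tested as well, in the same comparison, where 39.6% of all tested genes were called and 27.5% were called higher. Of 5 ESRRB cofactors and related receptors 3 rose, namely Nr5a2, with 30.1 and 33.0 RPM in d4 PGCLCs, against 0 and 0.387 RPM in EpiLCs, and the coactivator genes Ncoa2 and Ncoa3 (log2 differences 2.64 ± 0.40 and 1.23 ± 0.28). Of 4 tested TCL1 partners and neighbours 2 rose. Akt1, the kinase that TCL1 binds, had 212 and 223 RPM in d4 PGCLCs, against 31.4 and 41.8 RPM in EpiLCs. Of 14 other naive-state genes 7 rose and 5 fell, so they did not move as a block. Prdm14, a germ cell and naive-state regulator, had 129 and 113 RPM in d4 PGCLCs, against 0.190 and 0 RPM in EpiLCs, and Tdh had 565 and 515 RPM in d4 PGCLCs, against 5.71 and 1.55 RPM in EpiLCs. Of 11 exit genes 8 fell and 1 rose, with Dnmt3b at 3.29 and 3.09 RPM in d4 PGCLCs, against 1414 and 1352 RPM in EpiLCs. Several of these genes are also germ cell genes, and 10 mesoderm and somatic markers summed to 115 to 146 RPM in d4 PGCLCs, against 0.387 to 2.48 RPM in EpiLCs; their part in the members' return was not tested.

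The question of which genes persist was put to d4c7 cells against d4 PGCLCs. In FR10 culture 2 of the 9 genes rose and 0 fell, where 15.2% of tested genes were called and 7.01% were called higher. The 2 genes were Tcl1 and Zfp42. At the same time 7 of the 9 were still above EpiLCs, where 37.9% of tested genes were called and 25.5% were called higher, with Tbx3 and Nr0b1 again the exceptions. The 4 culture comparisons below share the same d4 libraries, so their values stand side by side and are not independent of each other.

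Tcl1 rose in each culture. It had 122 and 140 RPM in d4c7 CsA, 113 and 96.1 RPM in FGF10, 96.3 and 78.3 RPM in FGF2 and 140 and 140 RPM in FR10, against 31.0 and 22.2 RPM in d4 PGCLCs. Every cultured library lies above both d4 libraries. The log2 differences were 2.27 ± 0.28 in CsA, 1.95 ± 0.28 in FGF10, 1.69 ± 0.28 in FGF2 and 2.37 ± 0.28 in FR10, with limma adjusted p-values of 3.51e-05, 0.000171, 0.000249 and 3.63e-05. In FR10 its mean was 144% of the ESC mean.

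Zfp42 followed the same course. It had 200 and 223 RPM in d4c7 CsA, 280 and 220 RPM in FGF10, 242 and 178 RPM in FGF2 and 305 and 241 RPM in FR10, against 81.7 and 84.0 RPM in d4 PGCLCs. Its log2 differences were 1.34 ± 0.29 in CsA, 1.57 ± 0.29 in FGF10, 1.31 ± 0.29 in FGF2 and 1.70 ± 0.29 in FR10, with adjusted p-values of 0.00295, 0.00123, 0.00227 and 0.000868. In FR10 its mean was 101.5% of the ESC mean. The called shares in the other 3 comparisons were 27.1% for CsA, 20.3% for FGF10 and 40.6% for FGF2, of which 7.94%, 8.33% and 11.7% of tested genes were higher.

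**Figure D3:**
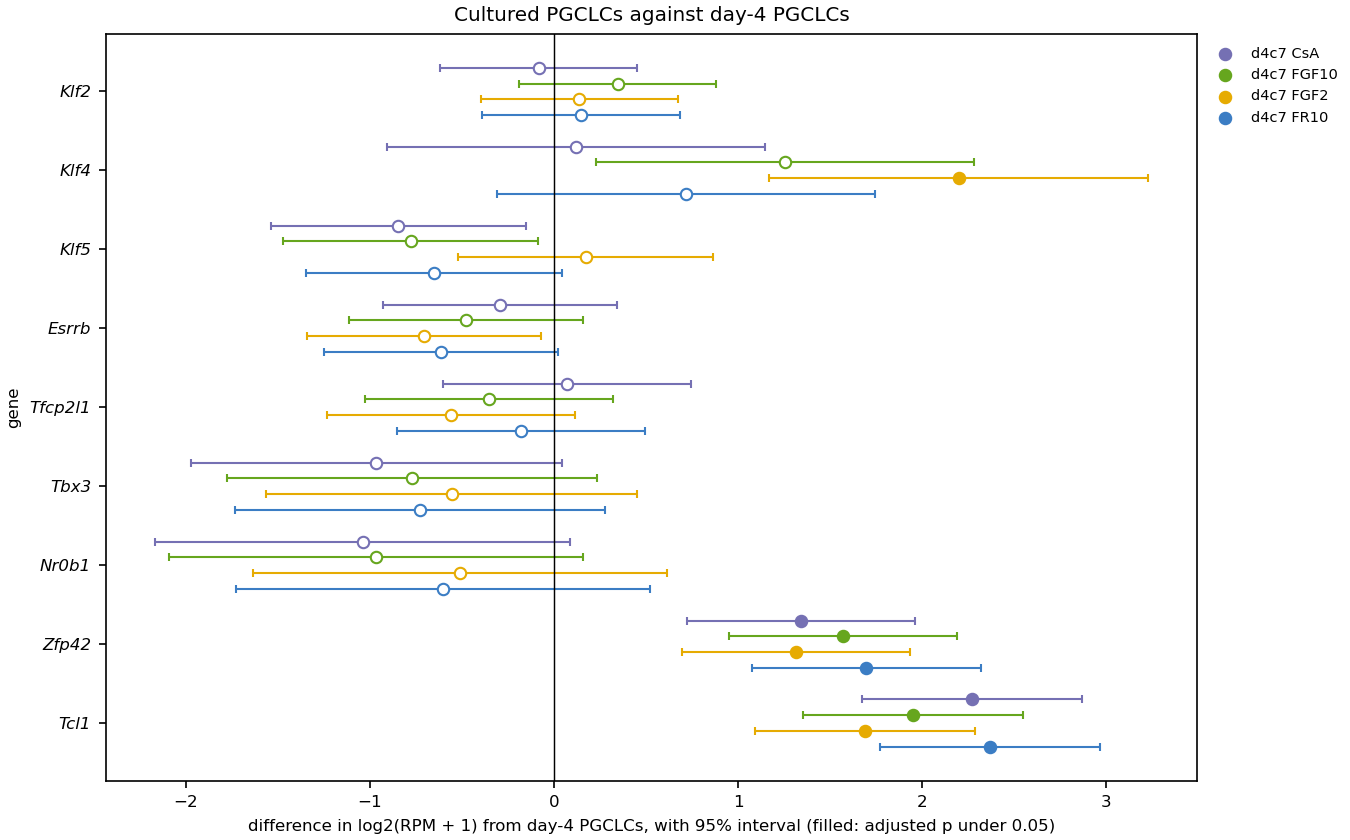
Log2 differences in log2(RPM + 1) from d4 PGCLCs (x axis) for each gene (y axis) in d4c7 CsA, FGF10, FGF2 and FR10, with 95% intervals from the limma fit; filled points have an adjusted p under 0.05. Zfp42 and Tcl1 lie above 1 in each culture, Klf4 is filled in FGF2 only, and the intervals of Klf2 and Tfcp2l1 span 0.

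Klf2, Esrrb, Tfcp2l1 and Klf5 were not called in any of the 4 cultures. Klf2 had 136 and 110 RPM in d4c7 CsA, 171 and 159 RPM in FGF10, 133 and 154 RPM in FGF2 and 148 and 139 RPM in FR10, against 149 and 113 RPM in d4 PGCLCs. Its interval in FR10 ran from -0.39 to 0.68. Tfcp2l1 had 60.8 and 61.3 RPM in CsA, 44.5 and 45.9 RPM in FGF10, 56.7 and 26.7 RPM in FGF2 and 50.3 and 52.1 RPM in FR10, against 62.5 and 53.9 RPM in d4 PGCLCs. Its interval in FR10 ran from -0.85 to 0.50. Without FGF2 replicate 1, the FGF2 difference was -1.09 (adjusted p = 0.0136). Both FR10 intervals exclude a 2-fold change in either direction.

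Esrrb and Klf5 had lower means in most cultures without passing the test. Esrrb had 157 and 147 RPM in d4c7 CsA, 138 and 129 RPM in FGF10, 133 and 97.2 RPM in FGF2 and 122 and 122 RPM in FR10, against 196 and 177 RPM in d4 PGCLCs. Every cultured library lies below both d4 libraries, but the FR10 difference was -0.61 ± 0.30 (adjusted p = 0.196, interval -1.25 to 0.02). It was called with only the compared groups in the fit (adjusted p = 0.0186). Leaving out the 3 libraries cannot change this difference, but Esrrb was called with the spread of that fit. In FGF2 Esrrb differed by -0.71 ± 0.30 (adjusted p = 0.0707), called with a replicate block (0.0467) and with voom (0.0482). Klf5 had 41.1 and 37.2 RPM in CsA, 40.8 and 41.3 RPM in FGF10, 65.5 and 98.2 RPM in FGF2 and 32.5 and 61.8 RPM in FR10, against 73.3 and 68.9 RPM in d4 PGCLCs. Its CsA difference was -0.85 ± 0.33 (adjusted p = 0.0655). It was called with a pseudocount of 10 RPM (0.0366), with only the compared groups (0.0116) and with voom (0.0338). The same difference was also called without the 3 libraries. In FGF2 the Klf5 range includes both d4 values.

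Klf4 was called in FGF2 culture and not in CsA, FGF10 or FR10. It had 3.47 and 7.25 RPM in d4c7 CsA, 10.8 and 14.1 RPM in FGF10, 24.0 and 25.3 RPM in FGF2 and 5.81 and 11.4 RPM in FR10, against 5.17 and 4.05 RPM in d4 PGCLCs. The FGF2 difference was 2.198 ± 0.486 (limma adjusted p = 0.00213) and brought its mean to 16.8% of the ESC mean. In FGF10 the difference was 1.25 ± 0.49 (adjusted p = 0.0798), called with a pseudocount of 10 RPM (0.039) and with only the compared groups (0.0442). The FGF10 difference was also called without the 3 libraries. The CsA and FR10 differences were 0.12 ± 0.49 and 0.72 ± 0.49.

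Since fibroblasts also express Klf4 and the cells grew on feeders, fibroblast transcripts are given beside it. Col1a1, Col1a2, Col3a1 and Dcn summed to 127 and 28.1 RPM in d4c7 CsA, 188 and 25.4 RPM in FGF10, 65.8 and 27.95 RPM in FGF2 and 168 and 129 RPM in FR10, against 3.29 and 3.09 RPM in d4 PGCLCs. These 4 are part of a list of 16 feeder and fibroblast markers, whose sum went the other way. The whole list summed to 687 to 838 RPM in CsA, 606 to 805 RPM in FGF10 and 286 to 596 RPM in FGF2. It summed to 888 to 975 RPM in FR10 and 1343 to 1493 RPM in d4 PGCLCs. The sum was higher still in ESCs, at 1748 to 1777 RPM. By gene, of 12 tested, 5 were called higher and 2 lower in FR10 than in d4 PGCLCs. The counts were 3 and 2 in FGF10, 2 and 2 in CsA and 1 and 2 in FGF2. Of all tested genes 15.2%, 20.3%, 27.1% and 40.6% were called, in that order. The list medians of the log2 difference were 1.75, 1.06, 0.556 and -0.2, against -0.07, -0.15, -0.29 and -0.40 over all tested genes. Fstl1 had 28.2 and 14.3 RPM in FGF2, against 758 and 562 RPM in d4 PGCLCs. Sparc had 125 and 104 RPM in FGF2, against 342 and 316 RPM in d4 PGCLCs. Lum was at 0 RPM in every library and Thy1 in every d4c7 library. Their part in the levels of Klf4 and of the other members was not tested.

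**Figure D4:**
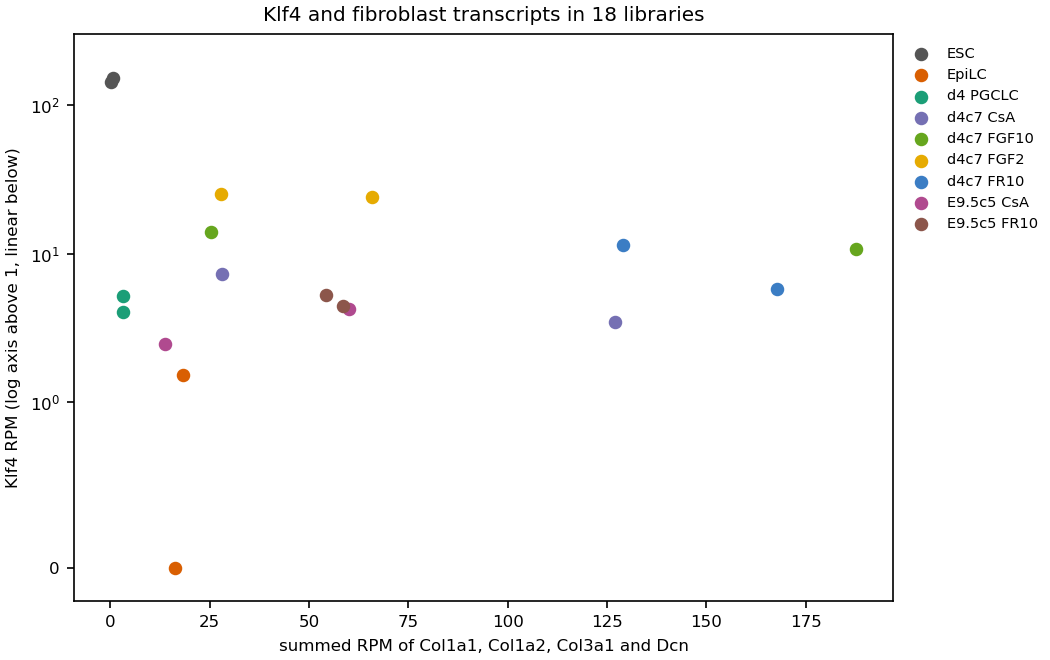
Klf4 RPM (y axis, logarithmic above 1 and linear below) against the summed RPM of 4 fibroblast transcripts (x axis, linear) in each of 18 libraries, a point per library and a colour per group. The d4c7 FGF2 points, at 24.0 and 25.3 RPM of Klf4, lie left of both d4c7 FR10 points. The 4 transcripts are Col1a1, Col1a2, Col3a1 and Dcn, part of a list of 16 markers whose sum was higher in d4 PGCLCs than in the d4c7 groups.

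Tbx3 and Nr0b1 did not come back in culture. Tbx3 had 0 and 0 RPM in d4c7 CsA, 0 and 0.306 RPM in FGF10, 0.761 and 0 RPM in FGF2 and 0.387 and 0 RPM in FR10, all under 3 reads. Nr0b1 had 8.68 and 7.86 RPM in CsA, 5.56 and 13.5 RPM in FGF10, 10.3 and 14.8 RPM in FGF2 and 14.7 and 8.98 RPM in FR10, against 25.4 and 12.7 RPM in d4 PGCLCs. Its FR10 difference was -0.60 ± 0.53 (adjusted p = 0.506, interval -1.73 to 0.52). In FR10 it stood at 12.9% of its ESC mean and Tbx3 at 0.451%.

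Around the members, some LIF and STAT3 pathway genes were called lower in culture. In d4c7 FR10 against d4 PGCLCs 6 of 12 fell, 0 rose, and their median log2 difference was -0.97, against -0.07 over all tested genes. The STAT3 targets Socs3 and Bcl3 had 7.74 and 7.25 RPM, and 5.03 and 7.25 RPM, in FR10, against 29.6 and 50.4 RPM, and 30.5 and 31.9 RPM, in d4 PGCLCs. The corresponding counts were 0 higher and 7 lower in CsA, 1 higher and 5 lower in FGF10 and 0 higher and 6 lower in FGF2. Of all tested genes 27.1% were called in CsA, 20.3% in FGF10, 40.6% in FGF2 and 15.2% in FR10. The pathway medians were -1.15 in CsA, -0.872 in FGF10 and -1.11 in FGF2, against -0.287, -0.148 and -0.401 over all tested genes. The counts of pathway genes moved with the libraries and settings used. In FR10 the 6 lower became 3 without d4 PGCLC replicate 1 or FR10 replicate 2, 2 without d4 PGCLC replicate 2 or FR10 replicate 1, and 2 with a filter at 50 RPM. In FGF2 median-ratio scaling gave 1 higher and 3 lower, and 3 were lower without d4 PGCLC replicate 2 or FGF2 replicate 1. In CsA 4 were lower without d4 PGCLC replicate 2 and 3 without CsA replicate 1. In FGF10 3 were lower without d4 PGCLC replicate 1 or FGF10 replicate 2, 2 without d4 PGCLC replicate 2, and 0 were higher without any 1 of its 4 libraries. Of 8 genes of the Wnt, GSK3 and TCF pathway 3 fell in FR10 and 0 rose, among them Lef1, with 31.8 and 17.95 RPM in FR10, against 101 and 79.0 RPM in d4 PGCLCs. No ESRRB cofactor and no TCL1 partner was called in FR10 (0 of 5 and 0 of 4).

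Other naive-state genes moved in both directions in culture. In d4c7 FR10 against d4 PGCLCs 6 of 14 rose and 1, Gbx2, fell, and 0 were lower without d4 PGCLC replicate 1, d4 PGCLC replicate 2 or FR10 replicate 1. Dppa5a, an RNA-binding protein gene of pluripotent cells, had 2294 and 3391 RPM in FR10, against 495 and 587 RPM in d4 PGCLCs. Spp1, which encodes the secreted protein osteopontin, had 301 and 340 RPM in FR10, against 28.6 and 28.8 RPM in d4 PGCLCs. Fbxo15, an F-box gene, had 254 and 272 RPM in FR10, against 71.4 and 54.6 RPM in d4 PGCLCs. At the same time the summed level of 4 later germ cell markers, Dazl, Ddx4, Mael and Sycp3, was 859 and 1003 RPM in FR10, against 11.3 and 18.5 RPM in d4 PGCLCs. Their part in the rise of Zfp42 and Tcl1 was not tested.

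With d4c7 CsA, FGF10 and FGF2 each set against d4c7 FR10, no member passed the test; CsA, FGF10 and FGF2 were not tested against each other. For d4c7 CsA against d4c7 FR10 limma called 0 of 9 members, 0 at an unadjusted p under 0.05 and 0 by voom, where 0.0314% of tested genes were called. For FGF10 against FR10 the counts were also 0, 0 and 0, with 0% of tested genes called. The intervals for CsA ran from -0.69 to 0.50 for Tcl1, -0.98 to 0.26 for Zfp42, -0.77 to 0.31 for Klf2 and -0.32 to 0.96 for Esrrb. The intervals for FGF10 ran from -1.02 to 0.18 for Tcl1, -0.75 to 0.49 for Zfp42, -0.34 to 0.74 for Klf2 and -0.50 to 0.77 for Esrrb. All of these exclude a 2-fold change, except the lower bound for Tcl1 in FGF10.

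Of the 3 comparisons with d4c7 FR10, FGF2 gave the largest difference of a member, that of Klf4. Limma called 0 of 9, 3 at an unadjusted p under 0.05 and 0 by voom, where 8.84% of tested genes were called. Klf4 had 24.0 and 25.3 RPM in FGF2, against 5.81 and 11.4 RPM in FR10, a log2 difference of 1.48 ± 0.49 (adjusted p = 0.0648). It was called with a pseudocount of 10 RPM (adjusted p = 0.0159) and under median-ratio scaling (0.043), and the median of all genes lay at -0.33 before that scaling. Klf5 had 65.5 and 98.2 RPM in FGF2, against 32.5 and 61.8 RPM in FR10 (0.82 ± 0.33, adjusted p = 0.113). Tcl1 had 96.3 and 78.3 RPM in FGF2, against 140 and 140 RPM in FR10 (-0.68 ± 0.28, adjusted p = 0.124). The libraries do not overlap for any of these 3 genes. The other 6 genes had intervals that span 0, from -0.54 to 0.53 for Klf2 and -0.73 to 0.54 for Esrrb.

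Cultured embryo germ cells expressed most of the members. In E9.5c5 cells Klf2 ran from 89.5 to 177 RPM, Zfp42 from 102 to 223 RPM and Tcl1 from 123 to 203 RPM over the 4 libraries, while Tbx3 was at 0 in all 4, which allows up to 0.566 to 1.02 RPM. Esrrb ran from 68.2 to 172 RPM, Tfcp2l1 from 46.0 to 55.8 RPM, Klf5 from 28.2 to 43.6 RPM, Nr0b1 from 4.02 to 17.5 RPM and Klf4 from 2.45 to 5.27 RPM. E9.5c5 FR10 had 203 and 166 RPM of Tcl1, against 140 and 140 RPM in d4c7 FR10 (log2 difference 0.39 ± 0.28, adjusted p = 0.505). It had 203.5 and 102 RPM of Zfp42, against 305 and 241 RPM in d4c7 FR10 (-0.91 ± 0.29, adjusted p = 0.202), a difference called without E9.5c5 FR10 replicate 1 (-1.41, adjusted p = 0.0231). Limma called 0 of 9 members for E9.5c5 FR10 against d4c7 FR10, 1 at an unadjusted p under 0.05 and 0 by voom, with 0.0418% of tested genes called. The origin of the cells, the days in culture, the reporter and the strain cannot be told apart here.

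Cyclosporin A in the embryo cells gave no called member either. Esrrb had 172 and 68.2 RPM in E9.5c5 CsA, against 101 and 112 RPM in E9.5c5 FR10, with the FR10 libraries inside the CsA range. Klf5 had 36.2 and 43.6 RPM in E9.5c5 CsA, against 28.2 and 35.2 RPM in E9.5c5 FR10. Limma called 0 of 9 members, 0 at an unadjusted p under 0.05 and 0 by voom, with 0% of tested genes called. For E9.5c5 CsA against d4c7 CsA the counts were 0, 0 and 0, with 0.0105% of tested genes called. Without E9.5c5 CsA replicate 1 Esrrb was called there (-1.14, adjusted p = 0.00502), and without E9.5c5 CsA replicate 2 the difference was 0.18 (adjusted p = 0.92), against -0.48 ± 0.30 with both. The difference between the CsA effects in the 2 kinds of cell was called for 0 members, 0 unadjusted and 0 by voom, with 0% of tested genes called.

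Over the 9 group means of log2(RPM + 1) the members followed different courses, described here by Pearson's r without a test. Most members had their lowest mean in EpiLCs, and a shared extreme group raises r. For Tbx3 and Nr0b1 the extreme group was ESCs, at 43.0 and 91.6 RPM. The next highest means, in d4 PGCLCs, were 0.994 and 19.1 RPM. Esrrb and Tfcp2l1 had an r of 0.978, Tbx3 and Nr0b1 0.965 and Klf2 and Tcl1 0.932. Tbx3 and Tcl1, which part after the EpiLC stage, had 0.018. The genes most alike were sought among tested genes outside the 9, leaving out predicted or clone names, microRNAs and small nucleolar RNAs. Esrrb was most like Tdh (0.986), Tfcp2l1 like Eif4e2 (0.982), Tbx3 like Ubd (0.99) and Tcl1 like Echdc2 (0.981). Nr0b1 was most like Necap2 (0.97), Klf4 like Cyb5r3 (0.969), Zfp42 like Rapsn (0.953) and Klf5 like Cndp2 (0.948). Nr5a2 was second for both Esrrb (0.983) and Klf5 (0.946).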

How the data were processed

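The deposited values are RPM, reads scaled to a common library total, made by the authors with 1 value per gene and library; the unit follows from the names of the files and from the values, which sum to 999098 to 999617 RPM per library. Tools in the submitters' processing notes are TopHat 1.4.1, cutadapt 1.3 and Cufflinks 2.2.0, with build mm10 and no roles given. SC3-seq reads transcript ends, so RPM does not depend on length, but genes with like 3' ends can share reads. Of 34896 genes, 46 had no value and were left out.

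Reads were inferred from the step between low RPM values, with 99.5% to 99.9% whole at a tolerance of 0.02 read and 34 to 57 values per library far below the step. Genes with at least 10 RPM in at least 2 libraries (9561) were tested with limma 3.58.1 in R 4.3.3 on log2(RPM + 1), with 9 group means, a variance trend, 9 residual degrees of freedom and a median residual SD of 0.37. The fit was tested on simulated data. Intervals are 95% intervals of that fit.

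The members and gene lists were chosen with earlier results of these data known. The lists share some genes, among them Nr5a2, Gbx2, Tcf7l1 and Sp5, so their counts are not independent of each other. All members are named; from each list the rule takes up to 4 called genes by smallest p, and for each member the 3 genes most alike, of which some are printed. The alternatives used a pseudocount of 0.1 or 10 RPM, a filter at 50 RPM or none, median-ratio scaling, only the compared groups, a replicate block, each replicate left out, 3 libraries left out (d4c7 FGF2 replicate 2 and replicate 2 of both E9.5c5 groups), and voom on inferred reads. Coordinates and promoters are from RefSeq on GRCm38.p6, the build that mm10 names. The gene most like Klf2 is not reported here.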

Additional observations from a re-analysis of the deposited data

How the results depend on the processing

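Of 199 recomputed counts of called members, 193 stayed within 1.5 times the reported count. For d4c7 FGF10 against d4 PGCLCs the count was 5 with only the compared groups in the fit and 5 without 3 libraries, against 2 reported; Klf4, Klf5 and Esrrb were added. For FGF2 against FR10 it was 1 with a pseudocount of 10 RPM and 1 under median-ratio scaling (Klf4), against 0. Leaving out each replicate in turn gave 0 to 1 for E9.5c5 FR10 against d4c7 FR10 and 0 to 1 for E9.5c5 CsA against d4c7 CsA, where the Esrrb difference ran from -1.14 without E9.5c5 CsA replicate 1 to 0.18 without replicate 2, and was 0.18 without 3 libraries. The causes were not tested, except that fewer samples enter the fits with libraries left out. Of 2786 recomputed counts of list genes called in 1 direction, 335 left that range; in EpiLCs against ESCs the other Klf and Sp genes lower were 1 with a filter at 50 RPM, against 5. A filter at 50 RPM removed Tbx3. Replicate numbers were not used to pair the samples in the main fit. Of 36 pairs of groups 7 had a correlation of same-numbered deviations over 0.1. The median was 0.00708 and the highest 0.34, and whether replicate numbers pair some of the groups was not tested. A replicate block gave 9 called members in EpiLCs against ESCs and 7 in d4 PGCLCs against EpiLCs. It gave 7 in d4 PGCLCs against ESCs, where 6 were reported, with Esrrb added. The planned edgeR test was not run because some values per library were not whole reads; voom on inferred reads was chosen in its place after seeing the data. Each group has 2 libraries, and genes at 0 to 3 reads in a library (Tbx3 after the ESC stage, Klf2, Klf4 and Tcl1 in EpiLCs) are limited by depth. The number of all genes called also moved by over 1.5 times. For EpiLCs against ESCs it ran from 826 without EpiLC replicate 2 to 3182 with only the compared groups (1525 reported), and for d4 PGCLCs against EpiLCs from 2256 with a filter at 50 RPM to 5438 with only the compared groups (3784 reported). For d4c7 FR10 against d4 PGCLCs it ran from 573 without d4 PGCLC replicate 1 to 2964 without 3 libraries (1456 reported), for d4c7 FGF10 from 892 to 3594 under the same settings (1940 reported), and for d4c7 CsA from 1326 without d4c7 CsA replicate 1 to 4226 without 3 libraries (2593 reported). For d4c7 FGF2 against d4 PGCLCs the lowest was 2266 with a filter at 50 RPM (3879 reported). For d4c7 FGF2 against d4c7 FR10 it ran from 0 with only the compared groups to 1722 without d4c7 FGF2 replicate 1 (845 reported), and for d4c7 CsA against d4c7 FR10 from 0 with only the compared groups to 968 without 3 libraries (3 reported). For E9.5c5 CsA it reached 654 against E9.5c5 FR10 (0 reported) and 1394 against d4c7 CsA (1 reported) without E9.5c5 CsA replicate 1, and for E9.5c5 FR10 against d4c7 FR10 259 without E9.5c5 FR10 replicate 1 (4 reported). For d4 PGCLCs against ESCs it ran from 1974 with a filter at 50 RPM to 5245 with only the compared groups (3299 reported), and for d4c7 FR10 against EpiLCs the lowest was 2159 with that filter (3626 reported). For d4c7 FGF10 against d4c7 FR10 it was 39 with no filter (0 reported), and the difference between the CsA effects in E9.5c5 and d4c7 gave 6 without E9.5c5 CsA replicate 1 (0 reported).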

Other observations

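The Klf and Sp genes outside the 9 were counted as well. In d4 PGCLCs against EpiLCs 4 of 15 tested rose and 1 fell, near the share over all tested genes. Of those, 39.6% were called and 27.5% were called higher. With only the compared groups in the fit 7 of the Klf and Sp genes rose, and 1 rose with a filter at 50 RPM. Klf8 had 97.2 and 98.9 RPM in d4 PGCLCs, against 4.57 and 10.1 RPM in EpiLCs, and Klf9 had 0.470 and 0.386 RPM in d4 PGCLCs, against 57.5 and 58.0 RPM in EpiLCs. In d4c7 FGF2 against d4 PGCLCs 8 of 15 fell and 1 rose, where 40.6% of all tested genes were called and 11.7% were called higher, and the median of all genes was -0.40. Median-ratio scaling gave 5 lower and 3 higher, and 5 were lower without d4 PGCLC replicate 1 or replicate 2. Sp3 had 9.13 and 7.29 RPM in FGF2, against 93.0 and 111 RPM in d4 PGCLCs. The gene that rose was Klf9, with 11.4 and 20.4 RPM in FGF2, against 0.470 and 0.386 RPM in d4 PGCLCs; it was named after its values were seen. In d4c7 FR10 5 of 15 fell and 0 rose, where 15.2% of all tested genes were called; leaving out any 1 of the 4 libraries gave 2 to 3 lower.

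Among the other naive-state genes, 6 of 14 rose and 4 fell in d4c7 FGF2 against d4 PGCLCs. The 2 described here were named after their values were seen, and both were also lower than in d4 PGCLCs in each of the other d4c7 cultures. Nanog had 66.6 and 36.9 RPM in d4c7 FGF2, 94.1 and 78.0 RPM in FR10, 60.5 and 114 RPM in CsA and 58.2 and 89.0 RPM in FGF10, against 230 and 244 RPM in d4 PGCLCs. Its log2 difference in FGF2 was -2.23 ± 0.49 (limma adjusted p = 0.0019), and it was also called in CsA and FGF10 (adjusted p = 0.0299 and 0.0199) and not in FR10 (0.0527). Prdm14 had 47.9 and 24.1 RPM in d4c7 FGF2, 68.2 and 61.5 RPM in FR10, 57.0 and 78.0 RPM in CsA and 53.8 and 59.7 RPM in FGF10, against 129 and 113 RPM in d4 PGCLCs. Its log2 difference in FGF2 was -1.79 ± 0.31 (limma adjusted p = 0.000316), and it was also called in FGF10 (0.021) and not in FR10 (0.0637) or CsA (0.0522).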
